A study of Homo sapiens with 20 samples.

Results

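At 4526 of the 372133 sites of accessible chromatin found in SW872 cells, an established human liposarcoma line, a peak was called in every cell population that carried a construct and no peak was called in the population that carried the empty vector (EV). These sites are regions in which overlapping peaks of 7 peak lists were merged, an overlap of 1 bp or more being enough. They were selected on the peak calls themselves, and the strength, width and distance values below come from the same lists, so all of them are given as descriptions without a test. Of the 64898 sites with a peak in all 6 construct lists, the 4526 without EV made up 6.97%, whereas 68.3% of all sites with a peak of any construct lacked EV. The other 60372 had a peak in all 7 lists.

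The cells were stably transduced pools, selected for a neomycin resistance gene carried by the same retroviral vector in every population, EV included. TAZ4SA and YAP5SA are mutant forms of TAZ and YAP whose inhibitory phosphorylation sites were replaced by alanine. CAMTA1 and TFE3 were expressed as full-length proteins. TAZ-CAMTA1 and YAP-TFE3 are the fusion proteins found in epithelioid hemangioendothelioma; the libraries of the latter carry a title that names Yap5SA-TFE3. Each vector was profiled in 3 libraries, except TFE3 with 2, 20 in all, and replicate 3 of EV is titled a redo. Since a vector is represented by 1 peak list, none of the values has replicates behind it, and the sequencing depth behind the lists is unknown.

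ATAC-seq uses a transposase that cuts and tags DNA not covered by nucleosomes, so a peak marks accessible chromatin such as a promoter or enhancer. YAP and TAZ are coactivators held in the cytoplasm by the Hippo kinases and brought to DNA in the nucleus by TEAD transcription factors, mostly at enhancers. CAMTA1 is a transcription activator that binds DNA, and TFE3 is a basic helix-loop-helix factor of the MiT family that binds E-boxes and is known for its control of lysosomal genes.

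The strength of a peak is its area under the curve, the sum over its bases of the caller's statistic. The lowest area was 20 in every list after rounding, and that is the limit a region had to reach to be listed at all. The number of peaks per list ran from 152702 in TAZ4SA to 236893 in TAZ-CAMTA1, with 171102 in EV. A given area does not stand for the same accessibility in lists of unknown depth, so areas are compared between sites within a list, and between lists as percentiles among all peaks of the same list. Where a site held several peaks of a list the strongest was taken, and the weakest of the 6 construct peaks is called the smallest area of the site.

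The first question was how often the remaining list is missing when all others have a peak. A lack of EV was less frequent than a lack of TAZ4SA, which held for 15814 sites or 20.8% of those in the other 6 lists. It was more frequent than a lack of any other list. TFE3 was the missing list at 1960 sites (3.14%) and YAP5SA at 1608 (2.59%). YAP-TFE3, CAMTA1 and TAZ-CAMTA1 were missing at 260, 242 and 195 sites (0.429%, 0.399% and 0.322%). The order of the lists by these counts was not their order by number of peaks, since TFE3 with 156421 peaks was missing less often than EV. It was nearly their order by bases covered, the shorter lists being missing more often, with only CAMTA1 and YAP-TFE3 exchanged. The peaks covered 52834428 bp in TAZ4SA, 70596855 bp in EV and 72931288 bp in TFE3, and 113741751 bp in TAZ-CAMTA1. When the TAZ4SA list, the shortest, was not required, the sites without EV numbered 10990 and made up 12.6%.

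Most of the 4526 sites were weak in at least 1 construct list. Their smallest area had a median of 46.3, quartiles of 29.8 and 80.4, and a highest value of 685. It was below 40, close to the lowest listed value, at 1893 of them (41.8%), against 5851 of the 60372 sites in all 7 lists. The smallest area was that of TAZ4SA at 1705 sites (37.7%) and that of TFE3 at 1613 (35.6%). By percentile within its list, the lowest peak was that of TFE3 at 1912 sites (42.2%), TAZ4SA at 1289 (28.5%) and TAZ-CAMTA1 at 538 (11.9%). At sites in all 7 lists these shares were 32.8%, 54.5% and 2.97%. At 571 sites (12.6%) each of the 6 peaks reached the median of its own list, and at 79 all 6 were below it. The matching shares of the sites in all 7 lists were not computed, so these counts cannot be called high or low. The median moved with the listing limit, to 80.5 over 3656 sites when peaks under a summit −log10 p of 4 were dropped and to 230 over 2576 sites under a limit of 5 (the latter chosen after seeing the data).

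The share without EV fell with each step in strength. It was 24.4% (1893 of 7744 sites, 95% Wilson interval 23.5 to 25.4) where the smallest area was below 40, 16.7% from 40 to below 80, 8.82% from 80 to below 160 and 3.20% from 160 to below 320. At 320 or more it was 0.178%, 54 of 30342 sites. This last share was small but depended on the setting, with 0.771% for windows of 250 bp around the summits, 0.399% and 2.39% under limits of 4 and 5 on the summit −log10 p, 0.499% without TFE3 and 0.380% without TAZ4SA. These intervals cover counting error only and not the spread between libraries. The same fall was seen for each of the other lists when that list was the missing one. A lack of TAZ4SA went from 55.8% to 2.15% between the weakest and the strongest bin, and a lack of TFE3 from 14.3% to 0.0208%. Without the TAZ4SA list among those required, the share without EV below 40 was 43.6%. With all 6 lists required, EV lay between TAZ4SA and TFE3 in every bin.

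**Figure D1:**
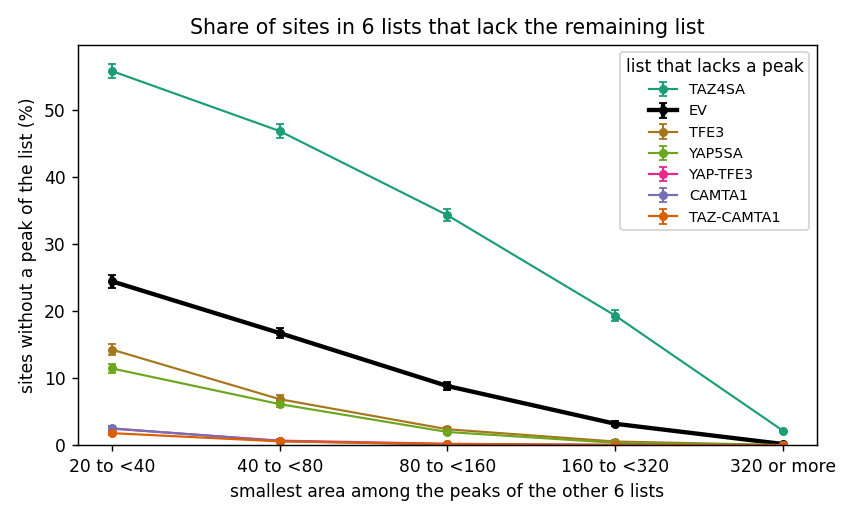
Share of sites with a peak in 6 lists that lack the remaining list (y axis, percent), by the smallest area among the 6 peaks present (x axis, 5 bins). Points are shares with 95% Wilson intervals of counting error. The EV curve falls from 24.4% to 0.178%, below that of TAZ4SA and above the 5 others.

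Weak sites nevertheless usually had an EV peak, and not a marginal one. Of the 7744 sites with a smallest area below 40, 5851 had a peak in all 7 lists, and the EV area there had a median of 139. It was below 40 at 628 of these sites, 10.7%. The sites without EV therefore outnumbered those with an EV area of 20 to 40 in this bin, 1893 to 628. From 40 to below 80 the 2 counts were 1495 and 666, and from 80 to below 160 they were 804 and 438. At 160 to below 320, 280 sites lacked EV and 198 had an EV area below 40. At 320 or more the 2 counts were nearly equal, 54 and 56.

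List by list, the construct peaks at sites without EV were weaker than at sites in all 7 lists, and unequally so. The median TAZ4SA area was 91.8 against 406 in all 7 lists, and that of YAP5SA was 257 against 1198. CAMTA1 had 302 against 1788, and YAP-TFE3 had 352 against 2077. TAZ-CAMTA1 had 222 against 2030, and TFE3 had 89.8 against 850. The ratio of the medians was thus 4.42 for TAZ4SA and 4.66 for YAP5SA, 5.92 for CAMTA1 and 5.89 for YAP-TFE3, and 9.16 for TAZ-CAMTA1 and 9.47 for TFE3. The summit −log10 p of the members had the order of their areas, with medians of 5.95 in YAP-TFE3, 5.68 in CAMTA1 and in YAP5SA, 5.12 in TAZ-CAMTA1, 4.78 in TAZ4SA and 4.35 in TFE3.

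**Figure D2:**
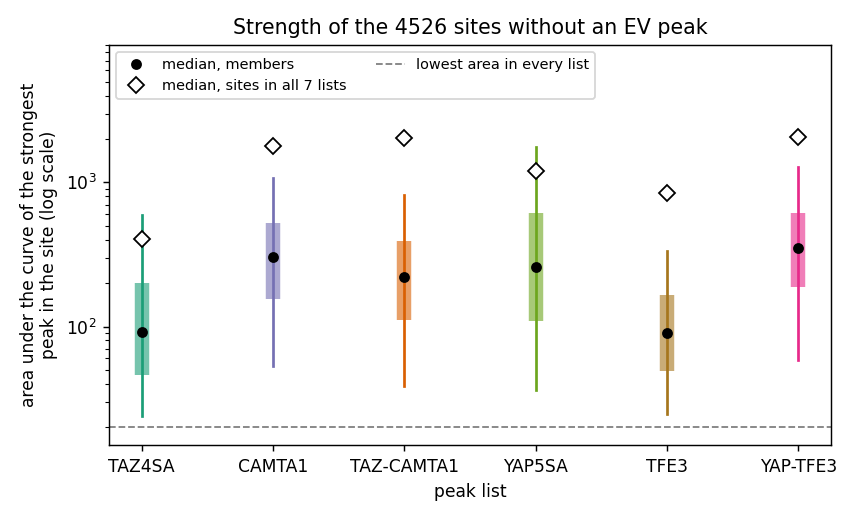
Area under the curve (log scale) of the strongest peak of each construct list in the 4526 sites without EV. Thick bars span the quartiles, thin lines the 5th to 95th percentiles, black points the medians, and white diamonds the medians at the 60372 sites in all 7 lists; the dashed line is the lowest area listed. The distance from point to diamond is widest for TAZ-CAMTA1 and TFE3 and narrowest for TAZ4SA and YAP5SA.

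As percentiles of their own lists, the members' median peaks stood highest in YAP5SA (66.7), followed by YAP-TFE3 (65.4), CAMTA1 (64.7), TAZ-CAMTA1 (58.6), TAZ4SA (49.6) and lastly TFE3 (39.1). At sites in all 7 lists the corresponding values ran from 76.8 for TAZ4SA to 86.7 for TAZ-CAMTA1. YAP5SA had the highest percentile of the 6 lists at 1767 sites without EV, or 39.0%, against 22.1% of the sites in all 7 lists. For TAZ-CAMTA1 the order was turned, with 14.0% against 31.7%. YAP-TFE3 led at 25.8% and 26.8%, and CAMTA1 at 15.2% and 14.7%. TFE3 led at 2 sites without EV. The YAP5SA peak had the higher percentile than the TAZ-CAMTA1 peak at 61.9% of the sites without EV and at 37.5% of those in all 7 lists. A peak at or above percentile 75 of its list was present at 1526 sites (33.7%) for YAP5SA and 963 (21.3%) for YAP-TFE3. The number was 800 (17.7%) for CAMTA1, 557 (12.3%) for TAZ4SA, 401 (8.86%) for TAZ-CAMTA1 and 24 (0.530%) for TFE3. Only the YAP5SA share was above the share of all single peaks of a list that stand at or above percentile 75. That is an unlike measure, because a site counts by its strongest peak. At sites in all 7 lists the median peak stood above percentile 75 in every list, so all 6 shares were lower than at those sites.

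The inequality among the lists remained when sites of like smallest area were set side by side. Over the 4 bins below 320, the median TAZ-CAMTA1 area at sites without EV was 0.294 to 0.310 of that at sites in all 7 lists, and the median TFE3 area was 0.322 to 0.482. The ratio was 0.513 to 0.537 for YAP-TFE3 and 0.547 to 0.623 for CAMTA1. For YAP5SA it was 0.846 to 1.19, and for TAZ4SA it was 1.17 to 1.26. At 320 or more, where 54 sites lacked EV, all 6 ratios were below 0.5, from 0.125 for TAZ-CAMTA1 to 0.399 for TAZ4SA and 0.460 for YAP5SA. TAZ-CAMTA1 and TFE3 thus had the lowest ratios in all 5 bins, while the TAZ4SA ratio was above 1 only below 320. These ratios depend in part on the choice of bins, because the smallest area is itself mostly a TAZ4SA or TFE3 value.

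Grouped by 1 construct list at a time, the share without EV fell with the area in each of the 6 lists (these bins were added after the data were seen). Among sites in all 6 construct lists, EV was missing at 64.2% (249 of 388) where the TAZ-CAMTA1 area was below 40, at 56.3% from 40 to below 80 and at 45.8% from 80 to below 160. It was missing at 29.4% from 160 to below 320, at 13.8% from 320 to below 640 and at 3.51% from 640 to below 1280. At 1280 or more, the top bin, EV was missing at 0.105% (40 of 38208). With TFE3 area the share went from 43.1% to 0 of 24069 sites, which allows a share of up to 0.0125% (3 counts of the total). By TAZ4SA area it went from 17.9% to 0.175%, and by YAP5SA area from 25.8% to 1.41%. An area below 40 was seen at 5142 of these sites in TAZ4SA and at 388 in TAZ-CAMTA1. Equal bins of different lists thus hold unlike parts of the sites, and the shares do not rank the lists. Over the sites in all 7 lists, the rank correlation of the EV area was 0.92 with TAZ-CAMTA1, 0.91 with TFE3, 0.89 with CAMTA1 and with YAP-TFE3, 0.81 with YAP5SA and 0.79 with TAZ4SA. These sites share the caller, the cell line and local sequence, and the coefficients are descriptions over 60372 sites.

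Among the 4526 sites without EV the lists were far less alike than at the sites in all 7 lists. The rank correlation of areas was 0.49 between TAZ4SA and YAP5SA, 0.49 between CAMTA1 and TFE3, and 0.49 between CAMTA1 and YAP-TFE3. It was −0.07 between TAZ4SA and TAZ-CAMTA1 and 0.08 between YAP5SA and TAZ-CAMTA1. At the sites in all 7 lists these values were, in the same order, 0.87, 0.95, 0.93, 0.74 and 0.82. The narrower range of areas among the members bears on these values, and its part in them was not tested.

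A subset of 463 sites without EV (10.2%) had both the TAZ4SA and the YAP5SA peak at or above percentile 75 of its list, against 51.2% of the sites in all 7 lists. Their median area was 559 in TAZ4SA and 1356 in YAP5SA, with 614 in CAMTA1, 542 in YAP-TFE3, 204 in TAZ-CAMTA1 and 139 in TFE3. The TAZ-CAMTA1 peak was below the median of its own list at 178 of the 463 (38.4%). Its median percentile there, 57.2, was close to the 58.6 of all 4526 sites. In CAMTA1, YAP-TFE3 and TFE3 the median percentiles were 74.8, 71.9 and 49.3, against 64.7, 65.4 and 39.1 at all 4526 sites. Their median distance to an EV peak was 5867 bp, and 88.1% had none within 1000 bp. When ranked by summit −log10 p in place of area, an alternative chosen after seeing the data, 449 sites met the condition. In comparison, 254 sites (5.61%, against 74.2% of the sites in all 7 lists) had both fusion peaks at or above percentile 75, with median areas of 893 in TAZ-CAMTA1, 1143 in YAP-TFE3, 102 in TAZ4SA and 472 in YAP5SA. The 2 subsets had 40 sites in common. The 463 sites were picked for their TAZ4SA and YAP5SA areas, so their values in these 2 lists follow from the choice.

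**Figure D3:**
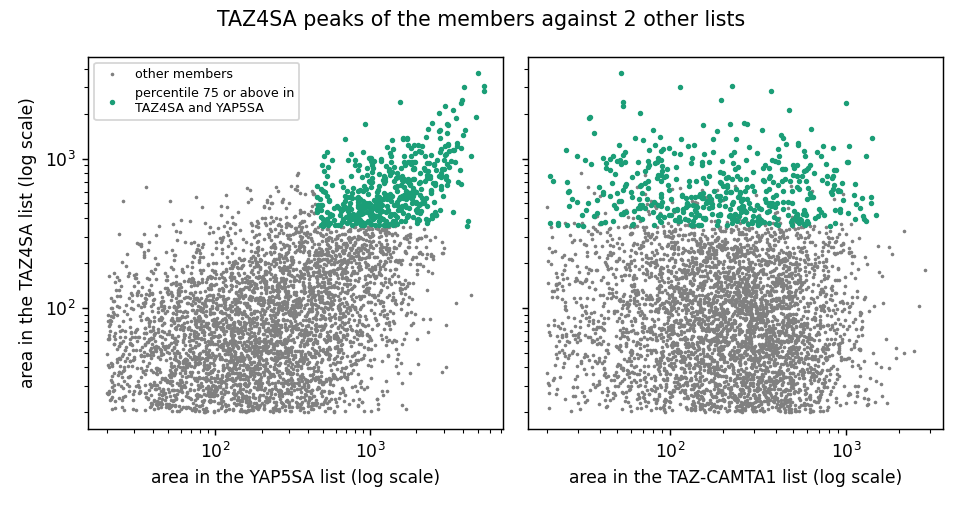
Area in the TAZ4SA list (y axis) against the area in the YAP5SA list (left) and in the TAZ-CAMTA1 list (right) for the 4526 sites without EV, all axes on a log scale and each point a site. The 463 green sites stand at or above percentile 75 in both the TAZ4SA and the YAP5SA list, and in the right panel they spread over nearly the whole range of TAZ-CAMTA1 areas.

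The 2 largest areas in each of the TAZ4SA, YAP5SA, YAP-TFE3 and TAZ-CAMTA1 lists, picked after the areas were seen, fell on 6 sites. At chr9:2809481-2811042 (hg19, as all positions here) the areas were 3723 in TAZ4SA and 5017 in YAP5SA, with 614 in CAMTA1, 84.8 in TFE3, 83.7 in YAP-TFE3 and 53.1 in TAZ-CAMTA1. The nearest EV peak was 13638 bp away with an area of 54.9, and the 6 lists had no base in common over the 1562 bp of the site. At chr15:97310709-97312247 YAP5SA reached 5485 and TAZ4SA 2826, while TAZ-CAMTA1 had 374, YAP-TFE3 284, CAMTA1 252 and TFE3 64.7. The nearest EV peak was 2292 bp away with an area of 43.4.

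At chr1:112805716-112807538 the fusions came first, with 3881 in YAP-TFE3 and 2597 in TAZ-CAMTA1. YAP5SA had 1212, CAMTA1 1169, TFE3 184 and TAZ4SA 102. An EV peak of area 23.6 lay 3668 bp away. The largest TAZ-CAMTA1 area without EV was 2785, at chr22:40722909-40723810, where CAMTA1 had 2338, YAP-TFE3 1802, TFE3 665, YAP5SA 290 and TAZ4SA 180. Its summits in the 6 lists fell within 25 bp, and the nearest EV peak, 17583 bp away, had an area of 3768. At chr3:5371937-5373305 YAP-TFE3 had 3839, with 907 in CAMTA1, 472 in TAZ4SA, 387 in TAZ-CAMTA1, 168 in TFE3 and 119 in YAP5SA. By percentile YAP-TFE3 stood at 91.2, CAMTA1 at 79.3 and TAZ4SA at 78.6, with the others at 67.8 or below. At chr1:59593522-59595124 the areas were 5434 in YAP5SA, 3048 in TAZ4SA, 1369 in CAMTA1, 750.2 in YAP-TFE3, 224 in TAZ-CAMTA1 and 199.5 in TFE3. The smallest area of the 6 sites was between 53.1 and 199.5.

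The 10 sites with the largest smallest area were strong in all 6 lists. The first was chr12:51787564-51788511, with areas of 762 in TAZ4SA and 1606 in YAP5SA, 1705 in CAMTA1 and 685 in TFE3, and 782 in TAZ-CAMTA1 and 1942 in YAP-TFE3. Its nearest EV peak had an area of 66.1 and lay 1796 bp away. The second, chr3:12549382-12550501, had 925 in TAZ4SA and 3148 in YAP5SA, 2019 in CAMTA1 and 642 in TFE3, and 768 in TAZ-CAMTA1 and 1790 in YAP-TFE3. Here the nearest EV peak, of area 86.0, was 22688 bp away, and all 6 lists shared 726 bp. Neither site came near the lowest listed area in any construct list.

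The rest, in order of smallest area, were chr1:169082773-169083387, chr10:70991792-70992761, chr15:93229792-93231226, chr3:30762400-30763246, chr2:111790106-111791187, chr15:40355472-40357140, chr2:191624452-191625520 and chr4:40992462-40993140. By percentile within its list, the TFE3 peak was the lowest of the 6 at 7 of the 10 sites and the TAZ-CAMTA1 peak at 3. The YAP5SA peak was the highest at 9, and it stood above the TAZ-CAMTA1 peak at all 10. Every construct peak at the 10 sites stood at or above percentile 73.2 of its list. The distance to EV was below 2000 bp at 4 of the sites and reached 25991 bp at chr3:30762400-30763246, and the nearest EV peak had an area below 100 at 5.

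**Figure D4:**
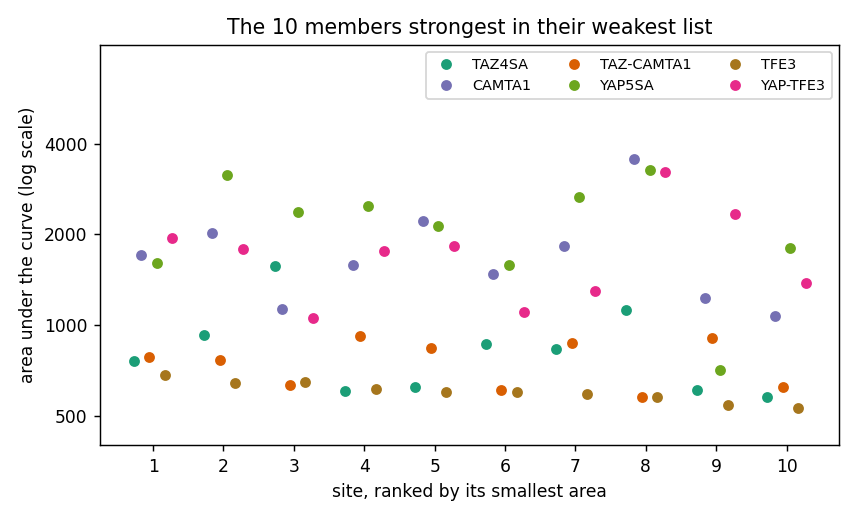
Area under the curve (log scale) in each of the 6 construct lists at the 10 sites without EV that have the largest smallest area, ranked by it on the x axis. The TFE3 points lie between 531 and 685 and the TAZ-CAMTA1 points between 576 and 924, while YAP5SA, CAMTA1 and YAP-TFE3 mostly lie above 1000; areas of different lists are not on a common scale.

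Few sites lay within 100 bp of a listed EV peak, and the distance to such a peak cannot show EV signal below the listing limit. The distance had a median of 3818 bp, quartiles of 1019 and 11458 bp, a lowest value of 16 bp and a highest of 1131167 bp. An EV peak lay within 100 bp of 28 sites (0.619%), within 500 bp of 741 (16.4%), within 1000 bp of 1113 (24.6%) and within 5000 bp of 2561 (56.6%). Among all 245536 sites without an EV peak, most of them in few lists, the shares were 24.5% within 500 bp, 37.0% within 1000 bp and 65.8% within 5000 bp, and the median was 2175 bp. Sites without EV but with all 6 constructs were therefore farther from EV than the background. Sites that lacked only TAZ4SA had a like distance to their missing list, with a median of 3624 bp, and those that lacked only TFE3 a shorter one of 1875 bp. Sites in all 7 lists had a median of 2374 bp to the nearest EV peak of another site, with 26.6% within 500 bp and 35.2% within 1000 bp. Under the limit of 5 on the summit −log10 p, the median distance from the sites without EV was 7771 bp, with weaker EV peaks then dropped as well. It was 6481 bp when sites with EV within 1000 bp were set aside.

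**Figure D5:**
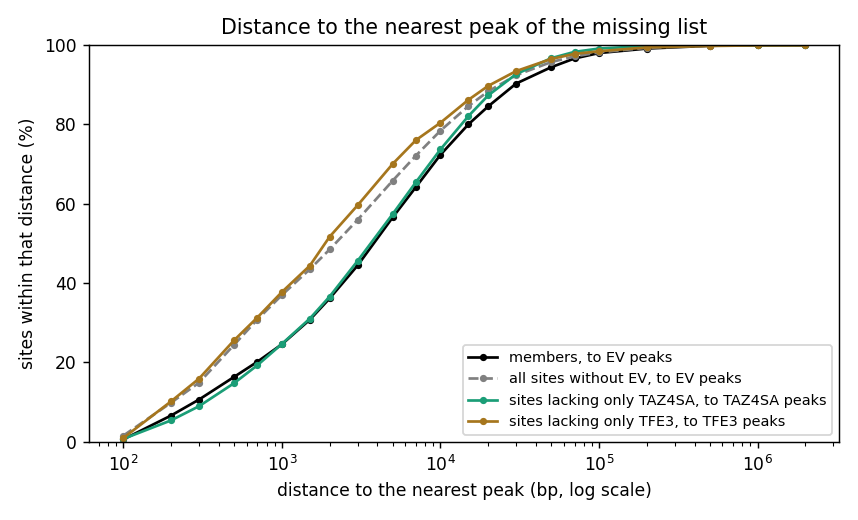
Cumulative share of sites (y axis, percent) by distance to the nearest peak of the list they lack (x axis, bp, log scale). At 1000 bp the sites without EV reach 24.6%, all sites without EV 37.0%, sites lacking only TAZ4SA 24.7% and sites lacking only TFE3 37.8%.

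The EV peak next to a site was itself mostly of ordinary strength, with a median area of 109 against 103 for all EV peaks. It was below 40 at 1002 sites (22.1%) and 320 or more at 1365 (30.2%). At 2785 sites (61.5%) it belonged to a site in all 7 lists, and at 206 (4.55%) to a site of EV alone. Sites near to EV were somewhat weaker than distant ones. The median smallest area was 38.1 at the 28 sites within 100 bp, 38.8 at the 713 from there to 500 bp, and 49.2 at the 1965 beyond 5000 bp. Within 100 bp the nearest EV peak had a median area of 45.1.

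The values next to the rule's edge were as follows. Just inside it, chr2:224590756-224591224 lay 16 bp from an EV peak of area 1733, and its own areas ran from 21.9 in TAZ-CAMTA1 to 140 in YAP-TFE3. At chr3:51720537-51720853 an EV peak of area 21.5 began 21 bp away, beside areas of 570 in TAZ4SA, 758 in YAP-TFE3 and 51.9 in TFE3. The third, chr5:132565715-132566340, was 23 bp from an EV peak of area 60.1 and had areas from 24.0 in YAP5SA to 365 in TAZ-CAMTA1. Just outside it, chr5:96044893-96045161 shared 8 bp with an EV peak of area 23.9, chr16:5826810-5827151 shared 10 bp with one of 24.2, and chr9:37029979-37030562 shared 16 bp with one of 30.3. In all, 29 of the 60372 sites in all 7 lists shared fewer than 50 bp with EV, and 1986 (3.29%) had an EV area below 40.

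At the far end, among sites whose smallest area was at or above the members' median, chr4:98060164-98061303 was 1002868 bp from EV. Its areas were 553 in TAZ4SA, 1091 in CAMTA1 and 188 in TFE3, with 1383 in TAZ-CAMTA1, 1794 in YAP-TFE3 and 1252 in YAP5SA. The next were chr4:66536003-66536510 at 904379 bp, with areas from 55.6 to 468, and chr7:14779215-14779718 at 729268 bp, with areas from 53.7 to 484.

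By both measures together, 2448 sites (54.1%, interval 52.6 to 55.5) either had a smallest area below 40 or had an EV peak within 1000 bp, and 558 met both. The remaining 2078 (45.9%) met neither. A smallest area of 160 or more was seen at 334 sites (7.38%), of which 293 had no EV peak within 1000 bp and 173 none within 5000 bp. At 320 or more there were 54 and 47. Of the 60372 sites in all 7 lists, 8482 had a smallest area from 160 to below 320 and 30288 had one of 320 or more. The answer on narrow misses thus depends on the limit. Few sites lay within 100 bp of a listed EV peak, while a large part came close to the listing limit in at least 1 construct list. A smallest area below 40 was seen at 7744 of the 64898 sites in the 6 construct lists, and most of those 7744 had an EV peak. It describes the weakest construct peak and does not measure how near EV came to a peak.

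The sites without EV but with all 6 constructs were narrower than the sites in all 7 lists and wider than most sites that lacked EV. All 245536 sites without an EV peak, most of them in few lists, had a median width of 112 bp (quartiles 90 and 211). The 4526 sites had a median width of 483 bp (quartiles 326 and 701). It was 1226 bp for sites in all 7 lists, and 741 bp for those in all 7 lists with a smallest area below 160. The median peak was 160 bp wide in TAZ4SA and 174 bp in TFE3, and between 239 bp (TAZ-CAMTA1) and 284 bp (CAMTA1 and YAP-TFE3) in the rest. Under the limit of 5 on the summit −log10 p the median width was 804 bp. Each list had a single peak in 2595 of the sites (57.3%), against 25.4% of the sites in all 7 lists. The summits of the 6 strongest peaks spanned a median of 102 bp, close to the 108 bp of the sites in all 7 lists, and lay within 100 bp of each other at 2250 sites (49.7%).

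Merging can join peaks that meet only through another peak. At 514 sites without EV (11.4%) no base was covered by all 6 lists, against 3.09% of the sites in all 7 lists and 8.59% of those with a smallest area below 160. The stretch common to the 6 lists had a median of 93 bp. Counted in bases and not in sites, 2330015 of the 38895275 bp covered by all 6 construct lists had no EV peak, or 5.99%. Of these, 495531 bp (21.3%) lay in the sites without EV, and the rest lay at sites with an EV peak that did not reach over the whole of the shared stretch.

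The sites were spread over all chromosomes, with 4416 on the 22 autosomes, 105 on X and the rest on Y and unplaced contigs. Among autosomes, the share of 6-construct sites without EV was highest on chromosomes 4 (10.2%) and 10 (10.2%, Wilson interval 8.90 to 11.6). It was lowest on chromosomes 21 (4.34%, 3.02 to 6.20), 19 (4.57%, 3.77 to 5.52) and 14 (4.76%, 3.89 to 5.80), with 7.05% on chromosome 1. Chromosomes 5, 11, 13, 16 and 20, at 5.24%, 5.63%, 5.80%, 5.84% and 5.36%, were also low. Among all sites, in whatever lists, the share without EV differed in the same direction on most of the chromosomes named here. It was 68.9% on chromosome 10 and 68.3% on chromosome 4, with 66.4% on chromosome 1. On the low chromosomes named here other than 16 it ran from 60.5% on chromosome 13 to 65.0% on chromosome 11. Chromosome 16 went the other way, with 67.2%. Chromosomes 18 and 22 had 68.8% and 67.9% over all sites, but 7.83% and 6.86% of their 6-construct sites lacked EV. Where only sites with a smallest area below 160 were taken, chromosomes 10 and 4 had 22.8% and 21.4%, and chromosomes 21, 13, 20 and 5 had 10.3%, 10.8%, 11.2% and 11.4%. The density of 6-construct sites moved partly with these shares. It was 13.8 per Mb on chromosome 10 and 11.4 on chromosome 4, and 42.1, 29.8 and 30.0 on chromosomes 20, 5 and 11, but 13.6 and 13.4 on chromosomes 13 and 21. Without the TAZ4SA list among those required, the shares were 11.5% on chromosome 19 and 14.8% on chromosome 4, beside 12.6% over all, so that chromosome 19 was then close to the whole. Copy number and its part in these shares were not tested.

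Few of the sites shared an interval between neighbouring EV peaks. Of the 4215 intervals between neighbouring EV peaks that held at least 1 of them, 3932 (93.3%) held just 1, and 27 held 3 or more. The most was 4, which spanned chr10:21180401-21390303. EV peaks far outnumber these sites, so a low count per interval says little about whether the sites cluster. The median distance from a site to the next site without EV was 119396 bp, and 476 sites (10.5%) had another within 10000 bp. Whether these values differ from another placement of as many sites was not tested.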

How the data were processed

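ATAC-seq libraries of SW872 cells were grouped by vector from their titles, and 7 peak lists, 1 per vector, were analysed. The study's methods name NGmerge for adapter trimming, BWA-MEM for alignment to GRCh37 (hg19) and Genrich, set for ATAC-seq, for peak calling, which left out PCR duplicates and blacklisted regions. The submitters' processing notes name Bowtie and a mouse build instead, which the coordinates go against. Those methods describe peak calling on each replicate, whereas there is 1 list per vector; how the libraries were combined, and so what an area stands for across them, is not given in the sources used here. The authors deposited for each peak its signal (area under the curve), the −log10 of the summit p-value and of the q-value, a score capped by the caller, and the summit position. The deposited −log10 values were used to filter and rank, and the deposited score and q-values were not used.

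Overlapping peaks (1 bp or more) of the 7 lists were merged with Python 3.11.15, pandas 2.3.3 and numpy 2.4.6. The merge gave the same sites as bedtools 2.31.1 on simulated peaks with known membership. Shares have Wilson 95% intervals (scipy 1.17.1). With 1 list per vector there were no replicates, no depth per library and no test. Coordinates count from 1. The sites and comparisons were chosen with earlier results of these data known. Named sites are the 10 with the largest smallest area, the 3 nearest to and the 3 farthest from EV (the latter among sites with a smallest area at or above the median), and the 3 sites in all 7 lists that share the fewest bases with EV; further ones are marked as picked after their values were seen. Genes, sequences and motifs were not analysed here, because the reference at hand was of another build (GRCh38). The alternatives were other peak thresholds, equal list lengths, autosomes, fixed windows, wider limits for EV, and fewer lists.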

Additional observations from a re-analysis of the deposited data

How the results depend on the processing

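Every value rests on 1 list per vector, so the spread between libraries is not known, and the unknown depth of each list limits which weak peaks were listed. No paired analysis was possible because each vector has a single peak list, and for the same reason no library was left out in turn. Placement by gene and motif content, with their alternatives, were not run, for want of a reference of the same build. The direction of the strength trend was the same under each alternative that gave both ends of it. With autosomes alone, or with an EV peak within 100 bp counted as EV, 4416 and 4498 sites lacked EV, and their share, the share in the weakest bin, and the median strength, width and distance each stayed within the counting interval of the value reported. The following values are the share of 6-construct sites without EV, that share at a smallest area below 40, the median smallest area, the median width and the median distance to EV. They were 6.36%, 17.9%, 80.5, 575 bp and 4485 bp when peaks under a summit −log10 p of 4 were dropped. Lists cut to the same length gave 5.78%, 19.3%, 65.7, 541 bp and 4076 bp by −log10 p, and 5.94%, 19.2%, 66, 535 bp and 4154 bp by area. With an EV peak within 500 bp counted they were 5.83%, 19.5%, 48.3, 500 bp and 5442 bp, and within 1000 bp 5.26%, 17.2%, 49.1, 503 bp and 6481 bp. Without the TFE3 list they were 9.47%, 30.0%, 49.5, 450 bp and 3535 bp, and without the TAZ4SA list 12.6%, 43.6%, 50.7, 404 bp and 3032 bp, the number of sites then being 10990. Peaks replaced by windows reaching 250 bp from their summits gave 22.5% at a smallest area below 40, a median smallest area of 47.9, 940 bp and 4053 bp. Counting bases in place of sites gave a share of 5.99%. Alternatives chosen after seeing the data were a minimum summit −log10 p of 5, which left 2576 sites, 6.32%, 230, 804 bp and 7771 bp and too few weak sites for a share, and a base covered by all 6 lists, with 6.42%, 50.7, 466 bp and 4085 bp. The cause of these shifts was not tested, beyond the fewer peaks or lists that each alternative uses by construction.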
